A study of Homo sapiens with 8 samples.

Results

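The granins and neurosecretory vesicle genes were read from 11 array probes in derivatives of 22Rv1, an established line of human prostate carcinoma cells. They were chosen by name: every probe whose platform annotation gives CHGA, CHGB, SCG2, SCG3, SCG5, SNAP25, SYP, CELF3, INSM1 or PCSK1 as its gene was taken. That gave 11 probes for 9 of the 10 genes, out of 47320 probes in all, and PCSK1, a prohormone convertase, was not analysed here. The genes were listed with earlier results of these data known. Total RNA was hybridised to Illumina bead arrays, with 2 arrays in each of 4 groups and 8 in all. The groups were 22Rv1-M3-2 and 22Rv1-M3-1, both labelled as metastatic tumour, 22Rv1-PT, labelled as primary tumour, and 22Rv1-Luc2, labelled as the parental cells. All 4 groups carry the same source label, a prostate cancer cell line. The design text says that 22Rv1 cells were passed through animals to obtain metastases. The labels name neither the host animals nor the sites of growth nor the meaning of M3, and each derivative is represented by 1 line. Whether the paired arrays of a group stem from different cultures or animals is not stated, so the p-values measure only the spread between arrays, which may be technical.

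Granins are acidic secretory proteins that aggregate in the trans-Golgi network and are packed with peptide hormones into dense core vesicles, which release their content when calcium enters the cell. Convertases and their helper proteins cut the prohormones inside the vesicle, and SNARE proteins such as SNAP25 drive its fusion with the plasma membrane. In the prostate these genes mark the rare neuroendocrine cells of the normal epithelium, and pathologists use chromogranin A and synaptophysin to recognise neuroendocrine differentiation in prostate carcinoma.

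Values are the deposited log2 intensities, on which a lower number is a dimmer probe. The background of the arrays peaked at 6.11, and a probe was counted as above background on an array when it exceeded 6.53, the upper 1% point of that background. A probe was tested when it exceeded this level on at least 2 of the 8 arrays, which left 22756 probes and all 11 probes of the listed genes. Of the 11, 7 were above the level on all 8 arrays. Differences were tested with limma, and a probe is said here to have changed when its Benjamini-Hochberg adjusted p-value across those 22756 probes was below 0.05. The standard deviation between the 2 arrays of a group over tested probes was 0.163 in 22Rv1-M3-2, 0.106 in 22Rv1-M3-1, 0.143 in 22Rv1-PT and 0.215 in 22Rv1-Luc2. The labelled cell type was checked on prostate luminal genes: FOXA1 and HOXB13, transcription factors of that lineage, and the proteases KLK2 and TMPRSS2 exceeded the background level on all 8 arrays, while KLK3, which encodes prostate-specific antigen, was not above background on any array.

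Promoter sequence was at hand in RefSeq, build GRCh38.p14, for 6 of the 10 genes. The upstream windows of CHGA, SCG3 and CELF3 are shown because they hold the regulatory motifs searched for and because these 3 genes stood at different places in the comparisons that follow. Each window covers the 250 bases before the start site, written 5′ to 3′ on the gene's strand, and the last line is a site just after the start of SCG3. Capitals mark matches to TGACGTCA, the palindromic cAMP response element, in CHGA, to CAGCTG, an E-box bound by basic helix-loop-helix factors, in SCG3 and CELF3, and to the half-sites TTCAGCACC and GGACAGCGC of REST, a repressor of neuronal genes, in the paired site.
CHGA, chr14:92922900-92923149, plus strand: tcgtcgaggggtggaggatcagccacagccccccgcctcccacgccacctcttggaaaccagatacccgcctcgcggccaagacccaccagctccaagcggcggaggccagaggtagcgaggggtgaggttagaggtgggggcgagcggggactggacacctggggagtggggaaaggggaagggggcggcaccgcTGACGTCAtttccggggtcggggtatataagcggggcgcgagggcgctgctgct
SCG3, chr15:51681253-51681502, plus strand: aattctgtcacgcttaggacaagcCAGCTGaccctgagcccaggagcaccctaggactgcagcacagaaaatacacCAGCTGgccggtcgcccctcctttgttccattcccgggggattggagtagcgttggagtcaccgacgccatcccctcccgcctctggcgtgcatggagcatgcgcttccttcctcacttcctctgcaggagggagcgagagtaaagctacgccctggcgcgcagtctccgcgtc
CELF3, chr1:151716804-151717053, minus strand: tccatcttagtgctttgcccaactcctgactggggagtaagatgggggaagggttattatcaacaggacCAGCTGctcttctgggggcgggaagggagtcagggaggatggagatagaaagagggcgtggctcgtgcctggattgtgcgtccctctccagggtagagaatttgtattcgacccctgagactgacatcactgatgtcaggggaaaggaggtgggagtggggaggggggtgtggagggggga
SCG3 paired site, chr15:51681511-51681536, plus strand: TTCAGCACCcacagggcGGACAGCGC
Both strands of 35116 promoter windows of 300 bases were searched. TGACGTCA occurred in 1.85% of them and CAGCTG in 17.9%, while TTCAGCACC occurred in 0.376% and GGACAGCGC in 0.581%. Both half-sites on 1 strand occurred in 6 windows, 0.0171% of all, and SCG3 was one of them, with the left half-site starting 9 bases and the right one 26 bases into the transcript. The CHGA match began at position -54 from the start site. PCSK1, which has no values here, also held TGACGTCA, at position -77, and CAGCTG, at position -167 of a different window. None of these motifs was found in the windows of SYP and SCG5, which says only that these letters are not in those windows.

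Among the granins, CHGB was lower in all 3 derivatives than in the parental cells. SCG3 was lower on both probes in 22Rv1-M3-1 and 22Rv1-PT, and on ILMN_1711245 alone in 22Rv1-M3-2. For CHGA and SCG2 no difference passed the test, narrowly so for CHGA in the metastatic derivatives. CHGB encodes chromogranin B, a main core protein of dense core vesicles. Its probe, ILMN_1765966, read 7.19 and 7.26 in 22Rv1-M3-2, 6.35 and 6.51 in 22Rv1-M3-1, 7.43 and 7.37 in 22Rv1-PT, and 8.72 and 8.73 in 22Rv1-Luc2. The parental arrays stood above all 6 derivative arrays, and both 22Rv1-M3-1 arrays lay at or below background. Relative to 22Rv1-Luc2, CHGB was at least 4.59-fold lower in 22Rv1-M3-1, a fold set by the background level (limma, adjusted p = 1.51e-07). The fold was 2.83 in 22Rv1-M3-2, a log2 difference of -1.50 (limma, adjusted p = 5.66e-06), and 2.51 in 22Rv1-PT, a log2 difference of -1.33 with a standard error of 0.12 (limma, adjusted p = 4.15e-05). In bulk RNA such as this, fewer cells that make a transcript and less transcript per cell cannot be told apart.

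SCG3 encodes secretogranin III, which binds cholesterol-rich vesicle membrane and holds chromogranin A there. It has 2 probes. ILMN_2197946 read 9.77 and 9.71 in 22Rv1-M3-2, 9.28 and 8.92 in 22Rv1-M3-1, 9.59 and 9.42 in 22Rv1-PT, and 10.42 and 10.09 in 22Rv1-Luc2. ILMN_1711245 read 8.27 and 8.73 in 22Rv1-M3-2, 8.32 and 8.21 in 22Rv1-M3-1, 8.58 and 8.48 in 22Rv1-PT, and 9.24 and 9.07 in 22Rv1-Luc2. On both probes the parental arrays were the highest and did not overlap any derivative array. In 22Rv1-M3-1 the gene was 2.22-fold lower than in 22Rv1-Luc2 on the first probe (limma, adjusted p = 0.000465) and 1.85-fold lower on the second (limma, adjusted p = 0.00316). In 22Rv1-PT it was 1.68-fold and 1.54-fold lower (limma, adjusted p = 0.0142 and 0.038). The probes parted in 22Rv1-M3-2, where ILMN_1711245 passed the test with a log2 difference of -0.66 (limma, adjusted p = 0.0183) and ILMN_2197946 did not, with -0.51 and a 95% interval of -0.84 to -0.17 (limma, adjusted p = 0.0649; 0.017 without 22Rv1-Luc2 replicate 2). Several SCG3 calls did not hold in other settings, even with all arrays kept. In 22Rv1-PT, ILMN_1711245 missed the threshold with array weights, only the groups compared and background subtraction (limma, adjusted p = 0.0662, 0.0708 and 0.0976). ILMN_2197946 missed it there with only the groups compared and background subtraction (limma, adjusted p = 0.0611 and 0.0602). In 22Rv1-M3-2, ILMN_1711245 missed it with those settings too (limma, adjusted p = 0.0704 and 0.0574). Calls also rested on single arrays. Neither probe passed in 22Rv1-PT without its replicate 2 or its replicate 1. ILMN_1711245 also missed the threshold in 22Rv1-PT without 22Rv1-Luc2 replicate 1 (log2 difference -0.54). It missed it in 22Rv1-M3-2 without its replicate 1 (-0.42) or 22Rv1-Luc2 replicate 1 (-0.57), and in 22Rv1-M3-1 without its replicate 2 (-0.84).

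CHGA encodes chromogranin A, the granin measured in blood as a neuroendocrine tumour marker. Probe ILMN_1669410 was dim: it read 6.54 and 6.46 in 22Rv1-M3-2, 6.52 and 6.47 in 22Rv1-M3-1, 7.04 and 6.77 in 22Rv1-PT, and 6.91 and 6.98 in 22Rv1-Luc2. Both arrays of 22Rv1-M3-1 and replicate 2 of 22Rv1-M3-2 were below background, and the 22Rv1-PT arrays overlapped the parental ones. The log2 difference from 22Rv1-Luc2 was -0.44 in 22Rv1-M3-2 (95% interval -0.72 to -0.16, limma, adjusted p = 0.0543), -0.45 in 22Rv1-M3-1 (-0.73 to -0.17, adjusted p = 0.057) and -0.03 in 22Rv1-PT (-0.31 to 0.25, adjusted p = 0.934). CHGA did pass in some of the other settings run, 5 of 13 in 22Rv1-M3-2 and 4 of 13 in 22Rv1-M3-1. One of them was background subtraction (limma, adjusted p = 0.00722 in 22Rv1-M3-2 and 0.00776 in 22Rv1-M3-1), where the log2 difference of -1.21 in 22Rv1-M3-2 and -1.24 in 22Rv1-M3-1 depends on the floor set for values below background. SCG2, which encodes secretogranin II, the precursor of secretoneurin, was above background on every array. Its probe, ILMN_1703178, read 7.51 and 7.45 in 22Rv1-M3-2, 7.64 and 7.55 in 22Rv1-M3-1, 7.26 and 7.41 in 22Rv1-PT, and 7.68 and 7.73 in 22Rv1-Luc2. The parental arrays were the highest, with 22Rv1-M3-1 close beneath them. Its log2 difference from 22Rv1-Luc2 was -0.23 in 22Rv1-M3-2 (95% interval -0.49 to 0.04), -0.11 in 22Rv1-M3-1 (-0.37 to 0.16) and -0.37 in 22Rv1-PT (-0.63 to -0.11), with limma adjusted p = 0.344, 0.756 and 0.114. A p that misses the threshold does not show that SCG2 stayed level.

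**Figure D1:**
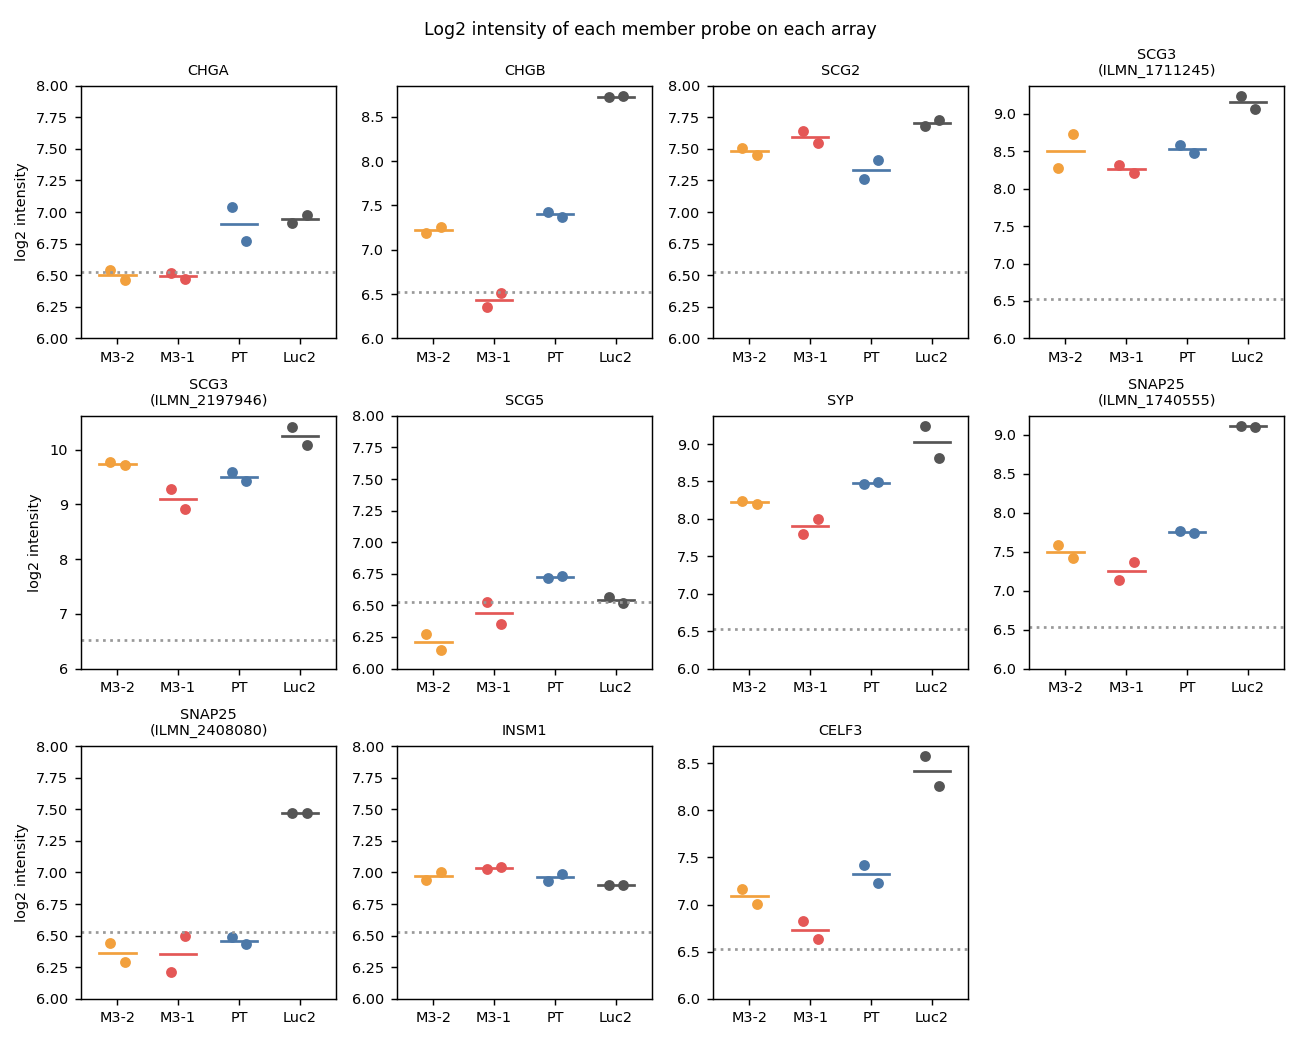
Log2 intensity of each of the 11 probes on each of the 8 arrays, by group. Points are arrays, the bar is the mean of a group's 2 arrays, and the dotted line is the background level of 6.53. CHGB, SNAP25 and CELF3 fall furthest from the parental arrays, and the 4 INSM1 groups sit within 0.139 of each other.

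SCG5 encodes 7B2, the chaperone of the convertase PC2, and is the one processing gene among the 9 measured. Probe ILMN_2065773 lay close to background: it read 6.27 and 6.15 in 22Rv1-M3-2, 6.53 and 6.35 in 22Rv1-M3-1, 6.72 and 6.73 in 22Rv1-PT, and 6.57 and 6.52 in 22Rv1-Luc2. The 22Rv1-PT arrays were the highest and the 22Rv1-M3-2 arrays the lowest, with the other groups between them. No difference from the parental cells passed the test: the log2 difference was -0.33 in 22Rv1-M3-2 (95% interval -0.60 to -0.07, limma, adjusted p = 0.136), -0.10 in 22Rv1-M3-1 (0.764) and 0.18 in 22Rv1-PT (-0.08 to 0.45, 0.498). Against 22Rv1-PT it was at least 1.15-fold lower in 22Rv1-M3-2, with a fitted log2 difference of -0.52 and a standard error of 0.12 (limma, adjusted p = 0.0261). That call ended when any 1 of the 4 arrays was left out (limma, adjusted p = 0.0846 without 22Rv1-M3-2 replicate 1, 0.115 without 22Rv1-M3-2 replicate 2, 0.145 without 22Rv1-PT replicate 1 and 0.152 without 22Rv1-PT replicate 2).

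Both genes of the vesicle membrane and its fusion were lower in the derivatives. SYP encodes synaptophysin, a membrane protein of small synaptic-like vesicles. Its probe, ILMN_1701483, read 8.24 and 8.20 in 22Rv1-M3-2, 7.80 and 8.0 in 22Rv1-M3-1, 8.46 and 8.49 in 22Rv1-PT, and 9.24 and 8.82 in 22Rv1-Luc2. No derivative array reached the parental ones, and 22Rv1-M3-1 was the lowest. SYP was 1.76-fold lower than in 22Rv1-Luc2 in 22Rv1-M3-2 (log2 difference -0.81, limma, adjusted p = 0.00363) and 2.20-fold lower in 22Rv1-M3-1 (-1.14, limma, adjusted p = 0.000384). The log2 difference of -0.56 in 22Rv1-PT did not pass (95% interval -0.88 to -0.24, limma, adjusted p = 0.0518), but passed in 5 of 14 other settings, among them without 22Rv1-Luc2 replicate 2 (0.00592).

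SNAP25 encodes a SNARE protein of the plasma membrane. Its brighter probe, ILMN_1740555, read 7.58 and 7.42 in 22Rv1-M3-2, 7.14 and 7.36 in 22Rv1-M3-1, 7.76 and 7.74 in 22Rv1-PT, and 9.11 and 9.10 in 22Rv1-Luc2. A wide gap separated the parental arrays from the 6 derivative arrays. It was 3.05-fold lower than in 22Rv1-Luc2 in 22Rv1-M3-2 (log2 difference -1.61, limma, adjusted p = 4.81e-06), 3.62-fold lower in 22Rv1-M3-1 (-1.86, adjusted p = 1.7e-06) and 2.56-fold lower in 22Rv1-PT (-1.36, standard error 0.13, adjusted p = 4.92e-05). The second probe, ILMN_2408080, which the annotation assigns to the same transcript, read 6.44 and 6.29 in 22Rv1-M3-2, 6.21 and 6.50 in 22Rv1-M3-1, 6.49 and 6.43 in 22Rv1-PT, and 7.47 and 7.47 in 22Rv1-Luc2. All 6 derivative arrays were below background, so this probe was tested only because it was above background in the parental cells, and its difference is no separate support. Each derivative was at least 1.92-fold lower on it (limma, adjusted p = 0.00015 in 22Rv1-M3-2, 0.00017 in 22Rv1-M3-1 and 0.000653 in 22Rv1-PT).

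Of the regulators, CELF3 was lower in the derivatives than in the parental cells, and no INSM1 difference passed the test. CELF3 encodes an RNA-binding splicing factor of neurons and neuroendocrine cells. Probe ILMN_1681234 read 7.17 and 7.01 in 22Rv1-M3-2, 6.83 and 6.63 in 22Rv1-M3-1, 7.42 and 7.23 in 22Rv1-PT, and 8.58 and 8.26 in 22Rv1-Luc2. The parental arrays were the highest and 22Rv1-M3-1 the lowest, with no overlap. CELF3 was 2.51-fold lower than in 22Rv1-Luc2 in 22Rv1-M3-2 (limma, adjusted p = 7.6e-05), 3.22-fold lower in 22Rv1-M3-1 (1.22e-05) and 2.13-fold lower in 22Rv1-PT, a log2 difference of -1.09 with a standard error of 0.15 (0.000776). INSM1 encodes a zinc-finger repressor that drives endocrine and neuroendocrine cell fate. Its probe, ILMN_1797668, read 6.94 and 7.0 in 22Rv1-M3-2, 7.03 and 7.04 in 22Rv1-M3-1, 6.93 and 6.99 in 22Rv1-PT, and 6.90 and 6.90 in 22Rv1-Luc2. The parental arrays were the lowest of the 8, and the group means spanned 0.139. The log2 difference of INSM1 from 22Rv1-Luc2 was 0.07 in 22Rv1-M3-2 (95% interval -0.18 to 0.32, limma, adjusted p = 0.826), 0.14 in 22Rv1-M3-1 (-0.11 to 0.39, 0.634) and 0.06 in 22Rv1-PT (-0.19 to 0.31, 0.848). REST, the repressor whose half-sites stand in the SCG3 window, read 6.72 and 6.74 in 22Rv1-M3-2, 6.61 and 6.63 in 22Rv1-M3-1, 6.70 and 6.95 in 22Rv1-PT, and 6.72 and 6.87 in 22Rv1-Luc2. No REST difference from the parental cells passed, with log2 differences of -0.07, -0.18 and 0.03 in 22Rv1-M3-2, 22Rv1-M3-1 and 22Rv1-PT (limma, adjusted p = 0.859, 0.573 and 0.95). The REST probe also lay close to the background level, so these values do not show that REST stayed level. Any link between REST and SCG3 was not tested.

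Counted over the 11 probes, the second SNAP25 probe included, 6 were lower and 0 higher in 22Rv1-M3-2 than in 22Rv1-Luc2, where 4.54% of all tested probes were lower and 4.36% higher. In 22Rv1-M3-1, 7 were lower and 0 higher, beside 3.91% lower and 3.22% higher among all tested probes. In 22Rv1-PT, 6 were lower and 0 higher, beside 2.51% lower and 2.42% higher. At an unadjusted limma p below 0.05 9 of the 11 were lower in 22Rv1-M3-2, beside 10.1% of all tested probes, 8 in 22Rv1-M3-1, beside 8.82%, and 8 in 22Rv1-PT, beside 8.99%. None of the 11 was higher at that p, beside 9.64%, 8.63% and 8.62% of all tested probes in 22Rv1-M3-2, 22Rv1-M3-1 and 22Rv1-PT. The median log2 difference of the 11 probes was -0.66 in 22Rv1-M3-2, -1.11 in 22Rv1-M3-1 and -0.62 in 22Rv1-PT, while the median over all tested probes lay between 0.00 and 0.01. Without the second SNAP25 probe, which was above background in the parental arrays alone, 5 of 10 were lower in 22Rv1-M3-2, 6 in 22Rv1-M3-1 and 5 in 22Rv1-PT, and the medians were -0.58, -1.01 and -0.59. Because the genes were listed with earlier results of these data known, these counts and medians describe the list and do not test it. The 3 comparisons share the 2 parental arrays, so a high reading on those arrays would move all of them. Subtracting the background before taking logs moved several differences of dim probes by over 1.5 times. CELF3, above background on all arrays, then differed from 22Rv1-Luc2 by -2.03 in 22Rv1-M3-2 and -2.90 in 22Rv1-M3-1. The SCG5 differences moved both ways under it.

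**Figure D2:**
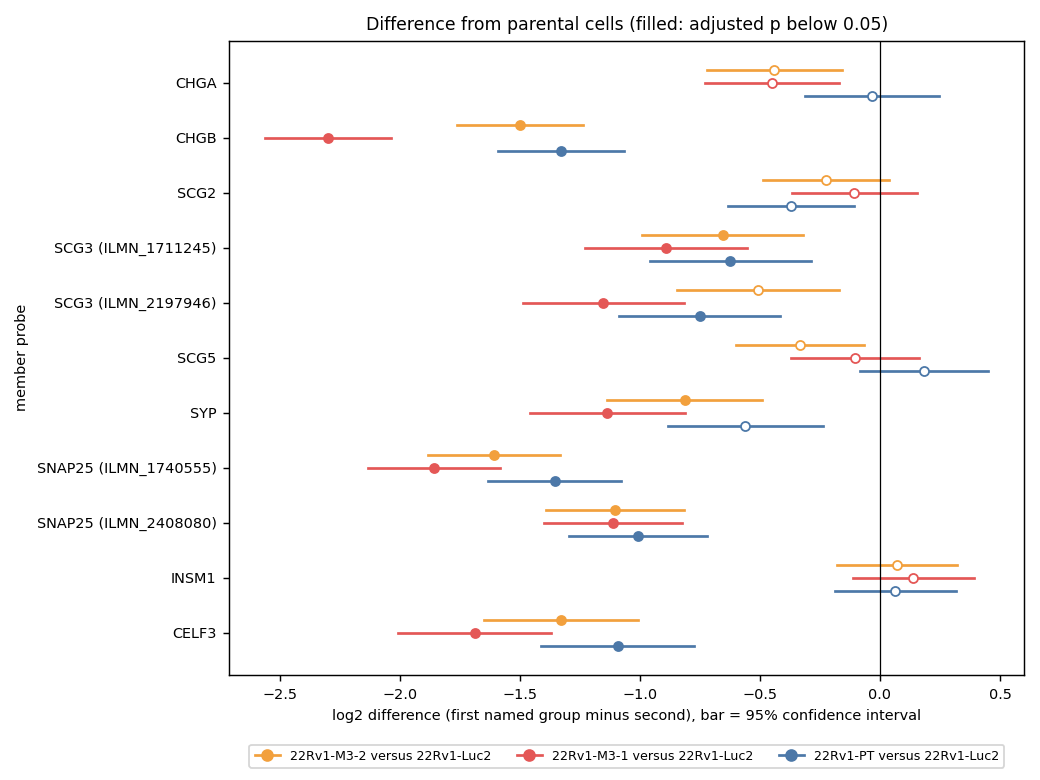
Log2 difference of each probe from 22Rv1-Luc2 in each derivative, with its 95% interval from limma. Filled symbols passed the adjusted threshold. Every call lies below zero, and the INSM1 intervals span zero in all 3 derivatives.

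The derivatives were also set against each other, which does not use the parental arrays in the difference. Against 22Rv1-PT, 4 of the 11 probes were lower in 22Rv1-M3-1, beside 3.08% of all tested probes lower, and the median log2 difference was -0.40. CHGB was at least 1.83-fold lower there, with a fitted log2 difference of -0.97 (limma, adjusted p = 0.000361), and it passed with any 1 array left out. CELF3 was 1.51-fold lower (limma, adjusted p = 0.0322), SNAP25 1.42-fold lower on ILMN_1740555 (0.0365) and SYP 1.49-fold lower (0.0407). These 3 calls ended when any 1 of the 4 arrays was left out, so the count fell to 1 without 22Rv1-M3-1 replicate 1, without 22Rv1-M3-1 replicate 2, without 22Rv1-PT replicate 1 and without 22Rv1-PT replicate 2. With the background subtracted, the log2 differences were -1.32 for CELF3 and -0.82 for SNAP25 on that probe. For SYP it was then -0.76 and did not pass (limma, adjusted p = 0.065). In 22Rv1-M3-2, 1 of the 11 probes was lower than in 22Rv1-PT, the SCG5 probe described above, beside 3.21% of all tested probes. For CHGB the log2 difference between 22Rv1-M3-2 and 22Rv1-PT was -0.17 with a 95% interval of -0.43 to 0.09 (limma, adjusted p = 0.491). CHGA did not pass against 22Rv1-PT, with log2 differences of -0.42 in 22Rv1-M3-1 and -0.41 in 22Rv1-M3-2 (limma, adjusted p = 0.0879 and 0.0901). This dim probe passed in 3 of 13 other settings in 22Rv1-M3-1 and in 1 of 13 in 22Rv1-M3-2.

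The metastatic derivatives differed from each other on CHGB. It was at least 1.63-fold higher in 22Rv1-M3-2 than in 22Rv1-M3-1, with a fitted log2 difference of 0.80 and a 95% interval of 0.54 to 1.06 (limma, adjusted p = 0.00422). This was 1 of 11 probes higher, beside 0.879% of all tested probes higher, and 0 were lower, beside 0.646%. At an unadjusted limma p below 0.05, 3 were higher, beside 4.65% of all tested probes, and 0 lower, beside 4.17%. The call ended without 22Rv1-M3-1 replicate 1 (limma, adjusted p = 0.121, log2 difference 0.72). SCG3 on ILMN_2197946 had a log2 difference of 0.64 with an interval of 0.31 to 0.98 (limma, adjusted p = 0.0716), and CELF3 one of 0.36 with an interval of 0.04 to 0.68 (0.461).

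**Figure D3:**
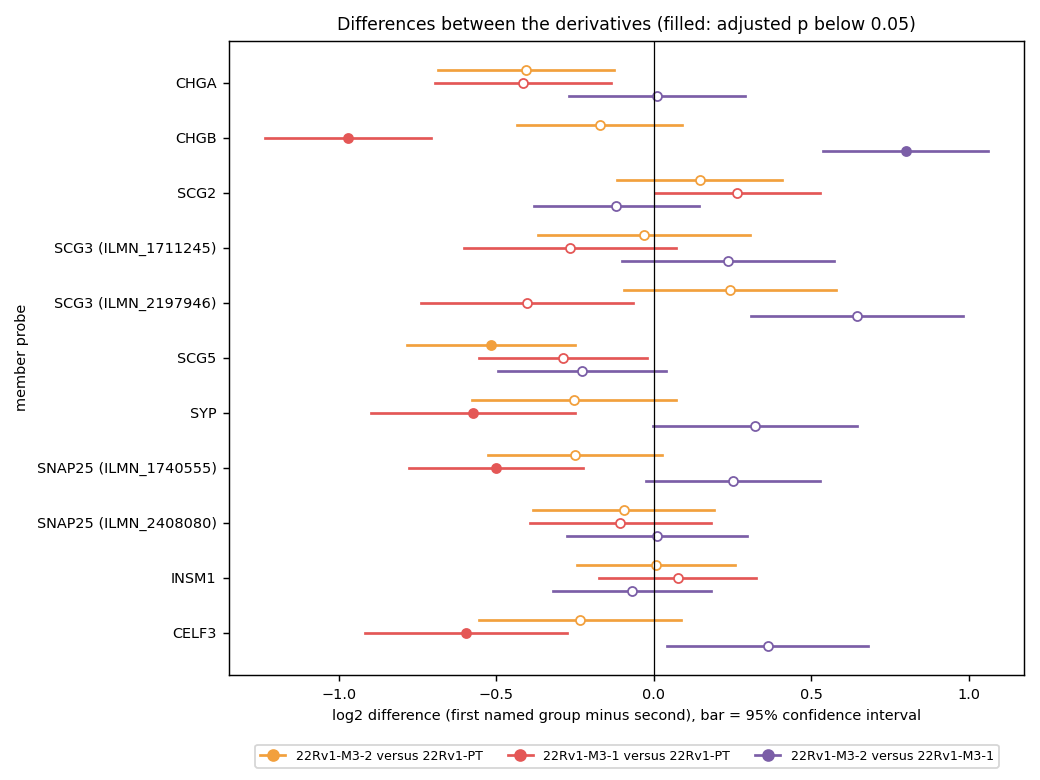
Log2 difference of each probe between the derivatives, with its 95% interval from limma. Filled symbols passed the adjusted threshold. CHGB is lower in 22Rv1-M3-1 than in 22Rv1-PT by 0.97 and higher in 22Rv1-M3-2 than in 22Rv1-M3-1 by 0.80.

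In order of group means, 5 of the 11 probes ran 22Rv1-Luc2, 22Rv1-PT, 22Rv1-M3-2, 22Rv1-M3-1 from high to low, counting only probes above background in the first 3 of these groups. These were CHGB, SYP, CELF3, SNAP25 on ILMN_1740555 and SCG3 on ILMN_1711245. How many of all tested probes ran in this order was not counted, so the count only describes these probes. The neighbours 22Rv1-PT and 22Rv1-M3-2 did not differ past the threshold on any of these 5, and 22Rv1-M3-2 and 22Rv1-M3-1 differed on CHGB. Across the 8 arrays the SNAP25 probe ILMN_1740555 correlated with CHGB at r = 0.968 and with CELF3 at r = 0.973, and the SNAP25 probes with each other at r = 0.982. The second SNAP25 probe was below background on every derivative array, so that last value is no separate support. SCG2 correlated with CHGB at r = 0.345. INSM1 correlated with CELF3 at r = -0.90, within a narrow span in which no INSM1 difference between groups passed the test. These coefficients describe 8 arrays that share 4 groups and 1 normalization, and most of each value comes from the gap between parental and derivative arrays. Among the 680 probes whose group means spanned at least 1, those most like CHGB were probes of GRM3 (r = 0.988) and AP3B2 (r = 0.987), and the closest to the SNAP25 probe ILMN_1740555 were 2 probes of IGFBP3 (r = 0.992 and 0.989). CELF3 was matched most closely by PDLIM7 (r = 0.994) and SYP by S100A10 (r = 0.986).

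Other genes of the secretory pathway did not move as 1 block. The list counts here and below stand beside these shares of all tested probes against 22Rv1-Luc2. In 22Rv1-M3-2, 4.54% were lower and 4.36% higher, in 22Rv1-M3-1 3.91% and 3.22%, and in 22Rv1-PT 2.51% and 2.42%. The lists are small, and no list count was tested against these shares. VGF, a further granin that yields neuropeptides, read 12.50 and 12.30 in 22Rv1-M3-2, 12.12 and 11.86 in 22Rv1-M3-1, 12.43 and 12.42 in 22Rv1-PT, and 13.75 and 13.60 in 22Rv1-Luc2. It was bright in every group and lower in all 3 derivatives, with log2 differences of -1.28 in 22Rv1-M3-2 (limma, adjusted p = 5.47e-05), -1.69 in 22Rv1-M3-1 (6.58e-06) and -1.25 in 22Rv1-PT (0.000156). PCSK1N, the granin-like inhibitor of PC1, was tested and passed in none of the 3. Of 8 tested probes for prohormone-processing enzymes, 0 were lower, and 4 were higher in 22Rv1-M3-2, 2 in 22Rv1-M3-1 and 2 in 22Rv1-PT. QPCT, the glutaminyl cyclase that caps peptides with pyroglutamate, read 8.39 and 8.39 in 22Rv1-M3-2, 8.33 and 8.31 in 22Rv1-M3-1, 6.90 and 6.95 in 22Rv1-PT, and 6.79 and 6.78 in 22Rv1-Luc2. It was higher in the metastatic derivatives by log2 differences of 1.60 and 1.53 from 22Rv1-Luc2 (limma, adjusted p = 2.07e-06 and 3.67e-06) and by 1.47 and 1.40 from 22Rv1-PT (8.98e-06 and 1.2e-05). CPE, the carboxypeptidase that trims the cut peptides, was higher by 0.63 in 22Rv1-M3-2 and by 0.68 in 22Rv1-PT (limma, adjusted p = 0.012 and 0.0142), against -0.23 in 22Rv1-M3-1 (0.469). PAM, the amidating enzyme, was higher by 0.78 in 22Rv1-PT (limma, adjusted p = 0.00678), and its differences in 22Rv1-M3-2 and 22Rv1-M3-1 were 0.29 and 0.47 (0.289 and 0.0732). PCSK6, a convertase of the PACE4 type, was higher by 0.47 in 22Rv1-M3-2 and 0.78 in 22Rv1-M3-1 (limma, adjusted p = 0.0418 and 0.00233), against 0.04 in 22Rv1-PT.

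Of 59 tested probes for vesicle and exocytosis genes outside the 10, 10 were lower and 7 higher in 22Rv1-M3-2, 14 lower and 2 higher in 22Rv1-M3-1, and 6 lower and 3 higher in 22Rv1-PT. Their median log2 difference was -0.06 in 22Rv1-M3-2, 0.01 in 22Rv1-M3-1 and 0.03 in 22Rv1-PT, close to that of all probes. SYT7, a calcium sensor of slow vesicle release, read 9.20 and 8.90 in 22Rv1-M3-2, 7.20 and 7.31 in 22Rv1-M3-1, 9.45 and 9.63 in 22Rv1-PT, and 9.43 and 9.17 in 22Rv1-Luc2. The 22Rv1-M3-1 arrays stood far below all others. The SYT7 log2 difference from 22Rv1-Luc2 was -2.04 there (limma, adjusted p = 2.41e-06), against -0.25 in 22Rv1-M3-2 and 0.24 in 22Rv1-PT (0.401 and 0.446), and 22Rv1-M3-2 exceeded 22Rv1-M3-1 by 1.79 (4.46e-05). SYT4, a synaptotagmin of dense core vesicles, was lower in all 3, by log2 differences of -0.98, -1.29 and -0.99 in 22Rv1-M3-2, 22Rv1-M3-1 and 22Rv1-PT (limma, adjusted p = 0.00222, 0.000361 and 0.00428). RAB3C, a GTPase of secretory vesicles, read 6.17 and 6.24 in 22Rv1-M3-2, 6.13 and 6.10 in 22Rv1-M3-1, 6.51 and 6.59 in 22Rv1-PT, and 7.72 and 7.53 in 22Rv1-Luc2. It was above background on both parental arrays and 1 array of 22Rv1-PT, and so was tested only through the group where it is high. It was at least 2.14-fold lower in 22Rv1-M3-2 and 22Rv1-M3-1 (limma, adjusted p = 1.05e-05 and 7.14e-06) and differed by -1.07 in 22Rv1-PT (0.000236). SYTL2, a synaptotagmin-like binder of RAB27, was lower on ILMN_2336609 by -0.96 in 22Rv1-M3-1 and -1.47 in 22Rv1-PT, against -0.53 in 22Rv1-M3-2, which did not pass (limma, adjusted p = 0.21). SNAP23, the widely expressed relative of SNAP25, was higher by 0.59 in 22Rv1-M3-2 (limma, adjusted p = 0.00881) and 1.09 in 22Rv1-PT (0.000205) on ILMN_1687519, and passed in both on its other probe too, ILMN_1748911.

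**Figure D4:**
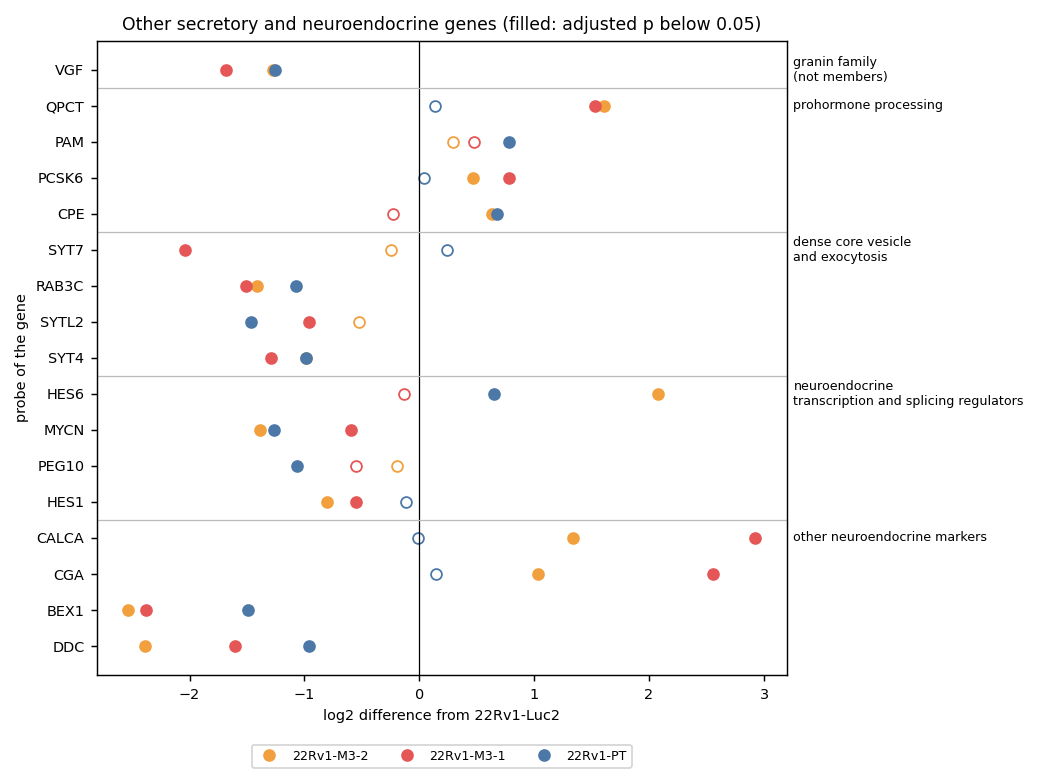
Log2 difference from 22Rv1-Luc2 in each derivative for the named genes of the secretory pathway and of neuroendocrine cells outside the 10. Filled symbols passed the adjusted threshold. VGF, BEX1 and DDC are lower in all 3 derivatives, QPCT and CALCA are higher in both metastatic derivatives, and SYT7 is low in 22Rv1-M3-1, at -2.04.

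Among transcription and splicing regulators of neuroendocrine cells, 35 probes were tested, of which 5 were lower and 1 higher in 22Rv1-M3-2, 3 lower and 2 higher in 22Rv1-M3-1, and 6 lower and 2 higher in 22Rv1-PT. HES6, a helix-loop-helix factor that counters HES1, read 11.65 and 11.67 in 22Rv1-M3-2, 9.47 and 9.42 in 22Rv1-M3-1, 10.33 and 10.12 in 22Rv1-PT, and 9.75 and 9.41 in 22Rv1-Luc2. It was highest in 22Rv1-M3-2, by log2 differences of 2.08 from 22Rv1-Luc2 (limma, adjusted p = 1.34e-06) and 2.21 from 22Rv1-M3-1 (4.01e-06). HES1, the Notch target that holds back neuroendocrine fate, was lower in 22Rv1-M3-2 by -0.80 and in 22Rv1-M3-1 by -0.55 (limma, adjusted p = 0.00167 and 0.0233). MYCN, an oncogene amplified in some neuroendocrine prostate tumours, was lower in 22Rv1-M3-2 by -1.38, in 22Rv1-M3-1 by -0.59 and in 22Rv1-PT by -1.26 (limma, adjusted p = 5.75e-05, 0.0299 and 0.000286). PEG10, a retrotransposon-derived gene, was lower in 22Rv1-PT by -1.07 (limma, adjusted p = 0.0144), against -0.19 in 22Rv1-M3-2 and -0.55 in 22Rv1-M3-1, which did not pass.

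Of 15 tested probes for other neuroendocrine markers, 5 were lower and 3 higher in 22Rv1-M3-2, 6 lower and 4 higher in 22Rv1-M3-1, and 4 lower and 0 higher in 22Rv1-PT. CALCA, which encodes calcitonin and its related peptide, read on ILMN_1807034 8.72 and 8.50 in 22Rv1-M3-2, 10.19 and 10.20 in 22Rv1-M3-1, 7.31 and 7.22 in 22Rv1-PT, and 7.39 and 7.15 in 22Rv1-Luc2. It was thus highest in the group where CHGB was lowest. Its log2 difference from 22Rv1-Luc2 was 1.34 in 22Rv1-M3-2 and 2.92 in 22Rv1-M3-1 (limma, adjusted p = 3.34e-05 and 5.6e-08), against -0.01 in 22Rv1-PT. CGA, the shared alpha chain of glycoprotein hormones, was higher by 1.03 and 2.56 in 22Rv1-M3-2 and 22Rv1-M3-1 (limma, adjusted p = 0.0177 and 2.54e-05). BEX1, a small neuronal protein, and DDC, the enzyme of catecholamine and serotonin synthesis, were lower in all 3 derivatives. BEX1 on ILMN_2234697 differed by -2.53 in 22Rv1-M3-2, -2.38 in 22Rv1-M3-1 and -1.49 in 22Rv1-PT (limma, adjusted p = 2.14e-07, 4.47e-07 and 4.92e-05), and DDC by -2.39 in 22Rv1-M3-2, -1.60 in 22Rv1-M3-1 and -0.96 in 22Rv1-PT (9.26e-07, 2.96e-05 and 0.00281).

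Markers of other cells were read on the same arrays. Of 10 fibroblast genes, COL1A2, COL3A1, FAP, PDGFRA and PDGFRB were not tested, as none of their probes was above background on 2 arrays, and the log2 intensity summed over the list's 18 probes was 126.3 on both arrays of 22Rv1-M3-2, 124.9 to 125.7 in 22Rv1-M3-1, 118.9 to 120.1 in 22Rv1-PT and 116.2 to 116.5 in 22Rv1-Luc2. LUM, which encodes the matrix proteoglycan lumican, read on ILMN_1790529 11.52 and 11.85 in 22Rv1-M3-2, 11.41 and 11.17 in 22Rv1-M3-1, 8.01 and 8.76 in 22Rv1-PT, and 6.55 and 7.21 in 22Rv1-Luc2. So the sum of this list moved with the groups, largely through the LUM probes. The untested genes named above did not meet the background rule. COL1A1, the list's other collagen gene, was among those tested. Of the list's 7 tested probes, 4 were higher and 1 lower in 22Rv1-M3-2 than in 22Rv1-Luc2. The LUM probes were higher there by log2 differences of 4.80 and 3.84. Of 8 endothelial genes none was tested, and of 9 immune genes PTPRC, CD3E, CSF1R, ITGAM and TYROBP were not. Among neuron and glia genes, GFAP, NEFM, RBFOX1, S100B and SOX10 were likewise not tested. Of the 9 tested probes for the other 4 genes of that list, 1 was lower and 1 higher in 22Rv1-M3-2, 1 lower and 2 higher in 22Rv1-M3-1, and 1 lower and 0 higher in 22Rv1-PT. The higher ones in 22Rv1-M3-1 were both of MAP2, a dendritic microtubule protein (log2 differences 0.95 and 0.93, limma, adjusted p = 0.000321 and 0.00228), and the lower one was of SLC17A7, a vesicular glutamate transporter (-1.02, 0.000821). The sum over the list's 17 probes was 112.3 to 112.9 in 22Rv1-M3-2, 113.8 to 114.3 in 22Rv1-M3-1, 110.7 to 111.4 in 22Rv1-PT and 111.2 to 112.6 in 22Rv1-Luc2, highest in the group where CHGB was lowest. The immune list summed over 17 probes lay between 111.7 and 112.8 in 22Rv1-M3-2, 111.9 and 112.6 in 22Rv1-M3-1, 112.3 and 112.5 in 22Rv1-PT, and 112.8 and 112.9 in 22Rv1-Luc2. Any part of other cells in the granin values was not tested.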

How the data were processed

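Per the labels' protocols, biotin-labelled cRNA made from total RNA was hybridised to Illumina bead arrays. The deposited table holds log2 intensities for 47320 probes, and its values differed by at most 0.0119 between arrays at the same rank; no source used here gives the authors' normalization or background correction. A second deposited table has 16 per-sample columns that match no sample's labels, and was not used. Probes were named through the platform annotation, which gave 1 symbol for 30112 probes, several for 8 and none for 17200. Groups and replicates came from the sample titles. Tests were run in R 4.3.3 with limma 3.58.1, with 4 group means over 8 arrays, which left 4 residual degrees of freedom plus 8.07 from moderation. Where both arrays of a group were at or below 6.53, the fold is a bound against that level. The number of arrays limits the precision. On simulated data the test recovered 98 to 100 of 100 probes changed by a log2 difference of 1, over the 6 comparisons. The false calls were 9 to 27, beside 200 changed probes among the 22756. The simulated noise was normal with the same spread in all groups, and log2 differences below 1 were not simulated. So the recovery of smaller differences, and the false calls on real arrays, are not known from it. All 9 measured genes are reported by probe, and from each list of other granin, processing, vesicle, regulator and neuroendocrine genes up to 4 probes with the largest difference among those that passed are named. REST, SNAP23, MAP2, SLC17A7 and LUM, and the luminal genes, were picked after their values were seen. The members and lists were chosen with earlier results of these data known. Alternatives covered the detection filter, the variance model, array weights, the arrays in the fit, a replicate block, centring, background subtraction, 1 probe a gene and leaving out each array.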

Additional observations from a re-analysis of the deposited data

Results flagged for a closer look

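CHGB stood out because the metastatic derivatives 22Rv1-M3-2 and 22Rv1-M3-1, both set against the same parental arrays, differed from each other by a test of that difference. The log2 difference of 22Rv1-M3-2 minus 22Rv1-M3-1 was 0.80 (limma, adjusted p = 0.00422), with both arrays of 22Rv1-M3-1 at or below background. Without 22Rv1-M3-1 replicate 1 the adjusted p was 0.121. The cause was not tested.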

How the results depend on the processing

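Of 66 differences (11 probes in 6 comparisons), 25 passed the test, 16 of them under every alternative run, and 9 missed the threshold in at least 1; none of the 25 changed direction. Of the 41 that did not pass, 8 passed in at least 1 alternative. Fitting only the groups compared gave 454 called probes in 22Rv1-PT against 22Rv1-Luc2 (1123 in the fit of all groups), 1193 in 22Rv1-M3-2 against 22Rv1-Luc2 (2026), 2883 in 22Rv1-M3-1 against 22Rv1-PT (1338) and 543 in 22Rv1-M3-2 against 22Rv1-M3-1 (347). Array weights gave 3098 in 22Rv1-M3-1 against 22Rv1-PT and 633 in 22Rv1-M3-2 against 22Rv1-M3-1. Leaving out 1 array at a time, the counts were 431 to 1769 in 22Rv1-PT against 22Rv1-Luc2 (lowest without 22Rv1-PT replicate 1, highest without 22Rv1-Luc2 replicate 1, and 507 without 22Rv1-PT replicate 2). They were 670 to 2022 in 22Rv1-M3-1 against 22Rv1-Luc2 (1622 with all; 670 and 692 without 22Rv1-M3-1 replicates 1 and 2) and 1148 to 2572 in 22Rv1-M3-2 against 22Rv1-Luc2 (lowest without 22Rv1-M3-2 replicate 1). They were 459 to 662 in 22Rv1-M3-1 against 22Rv1-PT (below the full count for each of the 4 arrays), 573 to 1169 in 22Rv1-M3-2 against 22Rv1-PT (1434 with all; 587, 573 and 605 without 22Rv1-PT replicates 1 and 2 and 22Rv1-M3-2 replicate 1) and 87 to 260 in 22Rv1-M3-2 against 22Rv1-M3-1 (87, 97 and 129 without 22Rv1-M3-1 replicates 1 and 2 and 22Rv1-M3-2 replicate 1). Among the 11 probes, leaving out 1 array gave 1 call (4 with all) in 22Rv1-M3-1 against 22Rv1-PT, 0 calls (1 with all) in 22Rv1-M3-2 against 22Rv1-PT and 0 to 1 in 22Rv1-M3-2 against 22Rv1-M3-1; a lone array was assumed to vary like the other groups. In 22Rv1-M3-2 against 22Rv1-PT, requiring a mean above 7, which leaves fewer probes, gave 0 calls, and background subtraction gave 2, SCG5 and CHGA. Over all probes tested these settings gave 1048 and 1248 calls, beside 1434 in the main fit. In 22Rv1-M3-2 against 22Rv1-M3-1, array weights, only the groups compared, the brightest probe a gene and the replicate block each gave 2. Over all probes tested they gave 633, 543, 303 and 445 calls, beside 347 in the main fit. The deviations of same-numbered arrays correlated at -0.155 to 0.50 (0.50 for 22Rv1-PT with 22Rv1-Luc2), and the labels do not say what a replicate number marks, so pairing is not established with 2 pairs; the replicate block gave 8, 8 and 7 calls among the 11 probes in 22Rv1-M3-2, 22Rv1-M3-1 and 22Rv1-PT against 22Rv1-Luc2, and 4 and 1 in 22Rv1-M3-1 and 22Rv1-M3-2 against 22Rv1-PT. Over all tested probes the block also gave more calls. Against 22Rv1-Luc2 these were 2310 in 22Rv1-M3-2, 1891 in 22Rv1-M3-1 and 1457 in 22Rv1-PT, beside 2026, 1622 and 1123 in the main fit. Against 22Rv1-PT they were 1653 in 22Rv1-M3-1 and 1851 in 22Rv1-M3-2, beside 1338 and 1434. The calls it added among the 11 probes were CHGA in 22Rv1-M3-2 and 22Rv1-M3-1 (limma, adjusted p = 0.0434 and 0.0448), SYP in 22Rv1-PT (0.0329) and SCG3 on ILMN_2197946 in 22Rv1-M3-2 (0.0187), all against 22Rv1-Luc2, and that SCG3 probe in 22Rv1-M3-2 against 22Rv1-M3-1 (0.0131). Signal close to background limits CHGA, SCG5, INSM1, REST and the second SNAP25 probe.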

Other observations

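Prostate luminal genes were read on 14 tested probes, of which 5 were higher and 2 lower in 22Rv1-M3-2 than in 22Rv1-Luc2, 4 higher and 3 lower in 22Rv1-M3-1, and 2 higher and 0 lower in 22Rv1-PT. KRT18, a keratin of luminal epithelium, was higher in all 3 derivatives on both probes. On ILMN_1730848 it read 8.59 and 8.66 in 22Rv1-M3-2, 8.52 and 8.28 in 22Rv1-M3-1, 8.74 and 8.65 in 22Rv1-PT, and 7.65 and 7.39 in 22Rv1-Luc2, with log2 differences of 1.11, 0.88 and 1.18 (limma, adjusted p = 0.000199, 0.00146 and 0.000272). FOLH1, which encodes prostate-specific membrane antigen, read 11.07 and 10.46 in 22Rv1-M3-2, 10.12 and 10.14 in 22Rv1-M3-1, 9.95 and 10.11 in 22Rv1-PT, and 9.0 and 9.57 in 22Rv1-Luc2 on ILMN_1681651. It was higher by 1.48 in 22Rv1-M3-2 and 0.84 in 22Rv1-M3-1 (limma, adjusted p = 0.000518 and 0.028), against 0.74 in 22Rv1-PT, which did not pass (0.0652). SLC45A3, which encodes the prostate protein prostein, read 8.52 and 8.21 in 22Rv1-M3-2, 7.26 and 7.16 in 22Rv1-M3-1, 8.32 and 8.44 in 22Rv1-PT, and 8.46 and 8.43 in 22Rv1-Luc2. It was lower in 22Rv1-M3-1 than in 22Rv1-M3-2, which exceeded it by a log2 difference of 1.16 (limma, adjusted p = 0.000625), and lower than in 22Rv1-PT, by -1.17 (0.000203). TMPRSS2, an androgen-regulated protease, read 7.16 and 7.50 in 22Rv1-M3-2, 7.36 and 7.23 in 22Rv1-M3-1, 8.36 and 8.14 in 22Rv1-PT, and 8.12 and 8.36 in 22Rv1-Luc2. All 4 arrays of the metastatic derivatives were below the others.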
